A study of Mus musculus with 10 samples.

Results

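The Hox genes of mouse lumbar spinal cord are described here, in cords from mice given paclitaxel or vehicle. They were taken by symbol, as every listed gene named Hox with a cluster letter from a to d and a number. This gave 39 of 24411 listed genes, 11 in the Hoxa cluster on chromosome 6, 10 in Hoxb on chromosome 11, 9 in Hoxc on chromosome 15 and 9 in Hoxd on chromosome 2. RNA was measured by bulk mRNA sequencing in 5 libraries of the paclitaxel group and 5 of the vehicle group. Paclitaxel is a microtubule-stabilising anticancer drug that can cause painful neuropathy. Of strain, sex, age, dose and time after treatment, none was given in the sources used here. Whether the 5 libraries of a group came from 5 animals is not in the labels either, and p-values therefore refer to the spread between libraries, which may be technical.

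Hox genes encode homeodomain transcription factors that give cells a position along the head-to-tail axis of the embryo. Within each cluster the genes lie in the order of the regions they mark: members of low number, at the 3′ end, start in the hindbrain and neck, and members of high number, at the 5′ end, start at trunk, lumbar, sacral and tail levels. Genes of the same number in different clusters form a paralogue group. In the spinal cord, Hox proteins assign motor neurons to columns and pools, with group 6 members used at forelimb level, group 9 members at thoracic level and group 10 members at hindlimb (lumbar) level, and much of this pattern persists in adult tissue.

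Each paclitaxel library held between 3676259 and 5432072 gene counts, against 4585899 to 7791594 in each vehicle library, so that 3 counts were worth between 0.385 and 0.816 CPM (counts scaled to a common library total). Of the listed genes, 13287 passed the filter on low counts and were tested, 30 of them Hox genes. Markers of forebrain and midbrain, which lie in front of the Hox domain, summed to between 2.02 and 6.82 CPM in the paclitaxel group and 1.74 and 5.00 CPM in the vehicle group, with Otx2 at 0. Markers of dorsal root ganglion reached at most 0.924 CPM in sum and those of skeletal muscle at most 2.82 CPM. Paclitaxel replicate 3 stood apart from the other libraries of its group over all genes, with a chi-square per degree of freedom of 4.84 to 6.55 against each of them, and 1.59 to 2.94 for the pairs without it. Vehicle replicate 5 was the deepest library. These 2 libraries also had the highest levels of Plin4, a gene induced by glucocorticoids, at 159.6 CPM (paclitaxel replicate 3) and 57.7 CPM (vehicle replicate 5) against 4.16 to 23.0 CPM in the other 8. Values with these libraries left out are given beside the results that moved with them.

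Together the 39 Hox genes made up 1007 ± 45.1 CPM in the paclitaxel group and 1027 ± 31.9 CPM in the vehicle group (SD, n = 5 each). The sum per library lay between 970.4 and 1059 CPM. The Hoxb cluster gave the largest sum, 441 ± 33.2 CPM in paclitaxel cords and 458 ± 19.4 CPM in vehicle cords. Hoxa gave 202 ± 7.89 CPM in paclitaxel cords and 201 ± 3.47 CPM in vehicle cords. Hoxc gave 178 ± 15.2 CPM in paclitaxel cords and 178 ± 8.45 CPM in vehicle cords, and Hoxd gave 185 ± 2.81 CPM in paclitaxel cords and 189.8 ± 14.9 CPM in vehicle cords. In each cluster the difference between groups was smaller than the larger of the 2 SDs. In bulk tissue, fewer cells of a type and less RNA per cell cannot be told apart, and this holds for every level and difference given here.

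Levels were set side by side between genes as CPM per kilobase of transcript (CPM per kb), with the median length of each gene's coding transcripts. Hoxb8, the group 8 member of the Hoxb cluster, led by a wide margin at 169.7 ± 14.8 CPM per kb (SD over 10 libraries). Hoxc10, Hoxb9 and Hoxa7 followed at 42.1 ± 3.60, 41.8 ± 3.41 and 40.5 ± 3.67 CPM per kb, then Hoxd8 at 35.9 ± 1.53 and Hoxa9 at 28.3 ± 1.97 CPM per kb. In the whole order of 39 genes, neighbours had ranges over the libraries that did not overlap in 2 of 38 cases, Hoxb8 over Hoxc10 and Hoxd8 over Hoxa9, so most neighbours are not separated by these data. The order also rests on the transcript lengths. With the RefSeq transcripts that the deposited table lists for each gene, Hoxb8 was at 73.5 CPM per kb and still first, whereas Hoxa7 was at 14.6 CPM per kb and moved to rank 14, the largest change of rank (10 places).

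**Figure D1:**
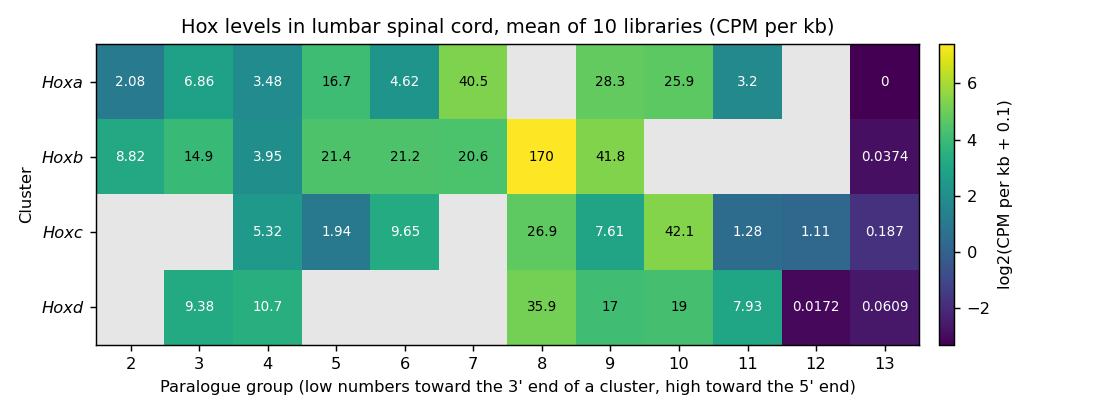
Level of each Hox gene of groups 2 to 13 in CPM per kb of transcript, mean of 10 libraries, with clusters in rows, paralogue groups in columns, colour on a log2 scale and grey where the mouse genome has no such gene. Hoxb8 is the highest cell at 169.7 CPM per kb, and levels drop at group 11 and beyond.

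Levels per kb peaked in the middle of the clusters. Group 8 held 36.8% of the summed Hox CPM per kb, group 9 held 15% and group 10 held 13.8%, with 28.2%, 16.3% and 18.0% when the RefSeq transcripts set the lengths. The lead of group 8 rested on Hoxb8 alone, at 169.7 of the group's 232.5 CPM per kb. The other members, Hoxd8 and Hoxc8, were at 35.9 and 26.9 CPM per kb, together below group 9 (94.7) and group 10 (87.0). Groups hold 2 to 4 members, and the sums are not scaled to that number. Group 11 held 1.97%, group 12 held 0.178% and group 13 held 0.0452%. At the other end, group 1 held 0.200% and group 2 held 1.73%. Hoxb was the leading cluster with 47.9% of the sum, and 42.4% with the RefSeq lengths. Hoxb8 alone gave 169.7 of the 302.35 CPM per kb of Hoxb, and Hoxa summed to 132.1 CPM per kb. Group 7 held 9.69%, above groups 5 (6.34%) and 6 (5.62%), but with the RefSeq lengths it held 7.29%, below groups 5 (8.27%) and 6 (8.40%). With either length the level was low in groups 1 and 2, highest in groups 8 to 10, and low again from group 11 on.

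At the 3′ end, Hoxd1 led group 1. It was at 1.17, 1.29, 0, 2.18 and 1.101 CPM in paclitaxel libraries 1 to 5 and 2.17, 1.92, 2.20, 1.52 and 0.641 CPM in vehicle libraries 1 to 5. Its level was low throughout, paclitaxel replicate 3 had no count of it, and vehicle replicate 5 had the lowest level of its own group. Hoxb2 led group 2 at 13.6, 12.8, 15.3, 14.2 and 12.3 CPM with paclitaxel and 14.3, 16.9, 14.96, 14.1 and 15.3 CPM with vehicle. Hoxb3 led group 3 at 22.7, 25.9, 31.8, 24.8 and 31.7 CPM with paclitaxel and 27.5, 32.0, 33.0, 29.1 and 22.3 CPM with vehicle. Both genes mark hindbrain segments in the embryo, and the groups overlapped for both. Hoxd3, the group 3 member of its cluster, was at 24.6, 23.3, 17.6, 17.5 and 17.1 CPM with paclitaxel and 21.9, 26.7, 21.1, 21.9 and 23.2 CPM with vehicle, with the lowest 3 values in paclitaxel libraries. Hoxa2, needed for identity of the second pharyngeal arch, was at 5.16, 3.88, 3.40, 4.37 and 3.49 CPM with paclitaxel and 2.17, 3.14, 3.30, 3.25 and 4.74 CPM with vehicle. Hoxa3, needed for thymus and parathyroid, was at 8.67, 12.38, 10.8, 12.005 and 8.81 CPM with paclitaxel and 6.51, 8.21, 9.68, 12.37 and 11.3 CPM with vehicle. For both genes vehicle replicate 1 was the lowest of all libraries. Hoxa3 overlaps Hoxa4, Hoxa5, Hoxa6 and the noncoding Hoxaas2 and Hoxaas3 in the annotation, and its counts were not whole in 8 libraries, whereas those of Hoxa4, Hoxa5 and Hoxa6 were whole in every library.

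Groups 4 to 7 mark cervical and forelimb levels in the embryo. Hoxd4 led group 4 at 18.7, 20.7, 18.5, 22.4 and 23.1 CPM with paclitaxel and 22.4, 22.7, 21.6, 22.6 and 23.97 CPM with vehicle, with paclitaxel replicate 3 lowest and vehicle replicate 5 highest. Hoxa4 was at 6.33, 5.91, 5.09, 6.82 and 6.61 CPM with paclitaxel and 5.42, 4.02, 6.16, 4.12 and 5.00 CPM with vehicle. The lowest 3 Hoxa4 values were in vehicle libraries and the highest 3 in paclitaxel libraries, with the other 4 mixed. Hoxb5 led group 5 at 38.4, 38.6, 31.8, 36.6 and 45.9 CPM with paclitaxel and 37.8, 43.0, 44.9, 46.7 and 42.0 CPM with vehicle. Paclitaxel replicate 3 was its lowest library. Hoxb6 led group 6 at 32.1, 34.4, 29.1, 27.6 and 32.5 CPM in paclitaxel libraries 1 to 5 and 38.0, 40.2, 38.3, 42.3 and 33.8 CPM in vehicle libraries 1 to 5. All vehicle libraries but replicate 5 lay above every paclitaxel library, and replicate 5 lay below paclitaxel replicate 2 alone. Hoxa7 led group 7 at 32.1, 26.4, 25.9, 30.01 and 30.1 CPM with paclitaxel and 34.5, 29.0, 29.9, 29.1 and 26.7 CPM with vehicle, with the groups overlapping over nearly their whole range. With the RefSeq lengths Hoxb7 led group 7, at 20.6 CPM per kb against 14.6 CPM per kb for Hoxa7.

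Groups 8 and 9 mark the thoracic trunk. Hoxb8, which leads group 8 and is also needed for normal spinal sensory circuits and grooming behaviour in mice, was at 165, 177, 184, 217 and 212 CPM in paclitaxel libraries 1 to 5 and 178, 201, 207, 199 and 194 CPM in vehicle libraries 1 to 5. Both the lowest and the highest of these values came from paclitaxel libraries. In group 9, Hoxb9 was at 103, 98.9, 84.7, 111 and 113 CPM with paclitaxel and 103, 92.6, 104, 101 and 99.5 CPM with vehicle. Hoxa9 was at 61.9, 50.1, 61.6, 60.6 and 53.9 CPM with paclitaxel and 57.8, 58.3, 55.0, 62.3 and 55.9 CPM with vehicle. Paclitaxel libraries held both the lowest and the highest Hoxb9 value, and the groups overlapped for both genes. Hoxd9 was at 35.4, 36.0, 29.9, 34.9 and 34.1 CPM with paclitaxel and 34.0, 37.4, 41.1, 43.4 and 36.9 CPM with vehicle. Its values were lowest in paclitaxel replicate 3 and highest in vehicle replicates 3 and 4, and the groups overlapped. Hoxc9, which in the mouse keeps forelimb motor programmes out of the thoracic cord, was at 10.5, 11.8, 8.49, 11.5 and 12.8 CPM with paclitaxel and 13.2, 12.9, 13.9, 7.81 and 11.5 CPM with vehicle, with vehicle replicate 4 lowest and paclitaxel replicate 3 next.

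Group 10 sets lumbar and hindlimb motor neuron identity. Hoxc10 was at 76.4, 74.7, 77.9, 82.7 and 89.4 CPM in paclitaxel libraries 1 to 5 and 67.8, 78.8, 86.5, 80.1 and 89.7 CPM in vehicle libraries 1 to 5. Hoxa10 was at 53.7, 51.8, 49.5, 54.6 and 50.1 CPM with paclitaxel and 52.4, 47.7, 55.7, 50.1 and 52.8 CPM with vehicle. The highest library was 1.32 times the lowest for Hoxc10 and 1.17 times for Hoxa10, and the groups overlapped for both. Within the paclitaxel group Hoxa10 was lowest in replicate 3. Hoxd10 was at 36.1, 29.8, 42.0, 31.6 and 37.6 CPM in paclitaxel libraries 1 to 5 and 25.9, 31.4, 30.4, 34.5 and 45.6 CPM in vehicle libraries 1 to 5. It was highest in vehicle replicate 5 and next in paclitaxel replicate 3, and lowest in vehicle replicate 1.

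Group 11 members act at sacral and caudal lumbar levels and in the hindlimb skeleton and kidney. Hoxd11 (chromosome 2, 74679558 to 74687016, GRCm38) was at 8.203, 9.06, 16.98, 5.73 and 8.62 CPM in paclitaxel libraries 1 to 5 and 3.80, 7.34, 6.16, 9.55 and 12.7 CPM in vehicle libraries 1 to 5. It was highest in paclitaxel replicate 3 and next in vehicle replicate 5, and the highest library was 4.47 times the lowest, vehicle replicate 1. Hoxa11 (chromosome 6, 52242105 to 52245810) was at 8.203, 6.84, 10.4, 3.82 and 6.97 CPM in paclitaxel libraries 1 to 5 and 5.97, 5.76, 7.48, 6.51 and 11.2 CPM in vehicle libraries 1 to 5. Hoxc11 (chromosome 15, 102954526 to 102956701) was at 2.11, 2.40, 4.03, 2.46 and 2.57 CPM in paclitaxel libraries 1 to 5 and 1.27, 1.92, 1.54, 3.04 and 4.61 CPM in vehicle libraries 1 to 5. In both genes vehicle replicate 5 was highest and paclitaxel replicate 3 next. Hoxa11 overlaps its antisense transcript Hoxa11os, its counts were not whole in any of the 10 libraries, and no strand setting is given in the sources used here, so reads of the 2 transcripts cannot be told apart. Hoxd11 overlaps Hoxd10 (chromosome 2, 74684273 to 74695106) in the annotation, although the counts of both were whole in every library.

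Groups 12 and 13 mark sacral and tail levels, and their members were at or near 0 in most libraries. Hoxc12 (chromosome 15, 102936826 to 102938609) was at 0, 0.185, 4.25, 0 and 0.734 CPM in paclitaxel libraries 1 to 5 and 0, 0.175, 0, 1.95 and 4.10 CPM in vehicle libraries 1 to 5. These rest on 20 counts in paclitaxel replicate 3 and 32 in vehicle replicate 5, with exact (Clopper-Pearson) 95% counting intervals of 2.60 to 6.57 and 2.81 to 5.80 CPM of the library total. Only 15 counts fell in the other 8 libraries together, 9 of them in vehicle replicate 4, and in the 4 libraries at 0 a count of 0 allows up to 0.541 to 0.816 CPM by the limit of 3 counts, or 0.665 to 1.00 CPM by the upper end of the exact interval. Hoxc13 (chromosome 15, 102921131 to 102928814) was at 0, 0, 3.40, 0 and 0 CPM in paclitaxel libraries 1 to 5 and 0, 0, 0, 0.434 and 0.769 CPM in vehicle libraries 1 to 5, from 16 counts in paclitaxel replicate 3, 6 in vehicle replicate 5 and 2 in vehicle replicate 4. Hoxd13, Hoxb13 and Hoxd12 had 9, 4 and 2 counts over all libraries, and Hoxa13 had 0 in every library, which allows up to 0.385 to 0.816 CPM by library at 3 counts. Intervals and limits cover counting error only. At the 3′ end Hoxb1 had 2 counts. In all, 33 of the 39 genes had a mean of at least 1 CPM.

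**Figure D2:**
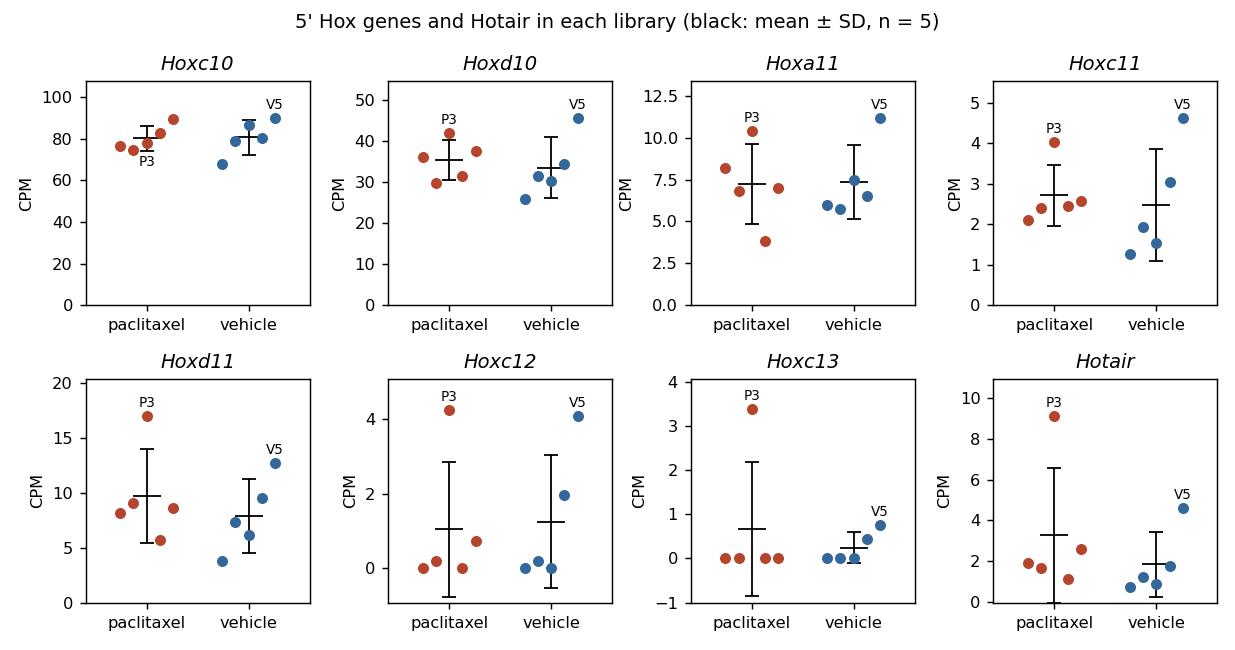
CPM of 7 Hox genes of groups 10 to 13 and of the long noncoding RNA Hotair in each library, with paclitaxel libraries on the left and vehicle libraries on the right, and the mean ± SD of each group in black. Paclitaxel replicate 3 (P3) and vehicle replicate 5 (V5) are the highest of their groups in every panel but that of Hoxc10, where paclitaxel replicates 4 and 5 are above replicate 3. Hoxa10 of group 10 is not shown. It was lowest of the paclitaxel group in P3 (49.5 CPM), and V5 (52.8 CPM) was below vehicle replicate 3 (55.7 CPM).

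The first comparison asks whether Hox levels differed between paclitaxel and vehicle cords. No Hox gene passed in edgeR's quasi-likelihood test with Benjamini-Hochberg adjustment over all genes, where 0 of 13287 genes (0%) passed and the smallest adjusted p was 0.792. DESeq2 called 1 gene over all, Klf4, and limma-voom called 0. Of the 30 tested Hox genes, 1 (3.33%) was at an unadjusted p under 0.05, beside 806 genes (6.07%) over all tested, of which 3.12% were lower and 2.94% higher with paclitaxel. Values were lower with paclitaxel for 18 of the 30 Hox genes (60.0%), beside 50.9% of all genes, and the median log2 fold change of paclitaxel over vehicle was -0.03 for the Hox genes and -0.0027 for all genes. With a GC and length correction 15 of the 30 were lower, beside 48.7% of all genes. The groups overlapped for every one of the 30 Hox genes, and for all but 1.09% of all tested genes, so this does not set the Hox genes apart. Log2 fold changes of the tested Hox genes ran from -0.30 to 0.31, and the half-width of their 95% intervals ran from 0.14 to 0.79 (median 0.24). Among all tested genes the median size of the log2 fold change was 0.078, and among the Hox genes it was 0.086.

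**Figure D3:**
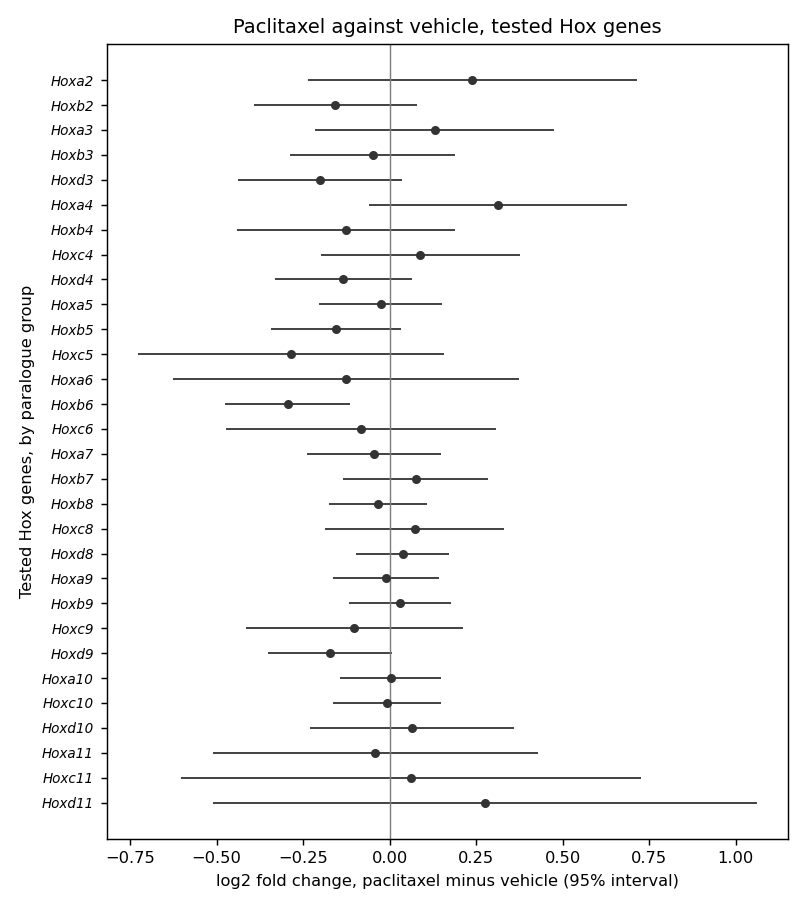
Log2 fold change of paclitaxel over vehicle for the 30 tested Hox genes with 95% intervals, from paralogue group 2 at the top to group 11 at the bottom; values to the right are higher with paclitaxel. The interval of Hoxb6 is the one that lies wholly on one side of 0 (-0.48 to -0.11), and Hoxd11 has the widest interval.

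Hoxb6 had the lowest p of the Hox genes. It averaged 31.1 ± 2.75 CPM in paclitaxel cords and 38.5 ± 3.14 CPM in vehicle cords (SD, n = 5 each), a log2 fold change of -0.30 (SE 0.09, edgeR unadjusted p = 0.00250, adjusted p = 0.792). Without paclitaxel replicate 3 and vehicle replicate 5 the log2 fold change was -0.32 (edgeR adjusted p = 0.991). Its spread was below the trend of genes of like abundance, with a biological coefficient of variation (BCV, the spread between libraries beyond counting error) of 7.72% against 8.91%. The neighbours Hoxb5 and Hoxb7 had log2 fold changes of -0.16 (95% interval -0.34 to 0.03) and 0.08 (95% interval -0.13 to 0.28). Within group 6, Hoxa6 and Hoxc6 had log2 fold changes of -0.13 (95% interval -0.63 to 0.37) and -0.08 (95% interval -0.47 to 0.31). Hoxb5 was at -0.089 without paclitaxel replicate 3, and without both paclitaxel replicate 3 and vehicle replicate 5 Hoxb7 was at -0.0010, Hoxa6 at -0.19 and Hoxc6 at -0.02.

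Of the other Hox genes lower in value with paclitaxel, Hoxd9 averaged 34.1 ± 2.42 CPM in paclitaxel cords and 38.6 ± 3.71 CPM in vehicle cords (SD, n = 5 each), with a log2 fold change of -0.17 (95% interval -0.35 to 0.01). Hoxd3 averaged 20.0 ± 3.63 CPM in paclitaxel cords and 23.0 ± 2.23 CPM in vehicle cords (SD, n = 5 each), with a log2 fold change of -0.20 (95% interval -0.44 to 0.04). Of those higher in value, Hoxa4 averaged 6.15 ± 0.682 CPM in paclitaxel cords and 4.94 ± 0.900 CPM in vehicle cords (SD, n = 5 each), with a log2 fold change of 0.31 (95% interval -0.06 to 0.69). Hoxa2 and Hoxa3 had log2 fold changes of 0.24 (95% interval -0.24 to 0.71) and 0.13 (95% interval -0.22 to 0.47). Both turned on single vehicle libraries: Hoxa2 was at 0.12 without replicate 1, 0.44 without replicate 5 and 0.50 without both paclitaxel replicate 3 and vehicle replicate 5, and Hoxa3 was at 0.02 without replicate 1, 0.22 without replicate 4 and 0.20 without that pair. None of these differences passed the adjustment over all genes (edgeR adjusted p from 0.792 to 0.906 over Hoxb6 and these genes).

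Several of the Hox genes of highest level had narrow intervals. The 95% intervals of the log2 fold change were -0.17 to 0.11 for Hoxb8, -0.12 to 0.18 for Hoxb9, -0.16 to 0.15 for Hoxc10 and -0.14 to 0.15 for Hoxa10. These intervals leave out changes of more than 0.18 on the log2 scale in either direction. So do those of Hoxd8 (-0.10 to 0.17) and Hoxa9 (-0.16 to 0.14), whereas that of Hoxa7 (-0.24 to 0.15) does not. For Hoxd11 the interval was wide, -0.51 to 1.06 around 0.28, and the value turned on single libraries: it was -0.01 without paclitaxel replicate 3, 0.56 without vehicle replicate 5 and 0.27 without both. Hoxc11 was at 0.06 with all libraries, -0.12 without paclitaxel replicate 3, 0.50 without vehicle replicate 5 and 0.32 without both. Hoxa11 was at -0.04 with all libraries, -0.20 without paclitaxel replicate 3, 0.20 without vehicle replicate 5 and 0.04 without both.

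The second question is whether libraries differed in rostrocaudal level. An index was taken for each library as the mean log2 CPM of the 6 tested members of groups 10 and 11 minus that of the 12 tested members of groups 4 to 7. It was 0.23, 0.06, 0.76, -0.10 and 0.18 in paclitaxel libraries 1 to 5 and -0.28, -0.08, -0.15, 0.11 and 0.68 in vehicle libraries 1 to 5. Paclitaxel replicate 3 and vehicle replicate 5 had the highest values, 0.46 above the third highest, and vehicle replicate 1 the lowest. The range over the libraries was 1.04 on the log2 scale, or 2.05-fold, and the counting error of a single library's index was 0.07 to 0.14 (SE). The group means were 0.23 ± 0.32 with paclitaxel and 0.06 ± 0.38 with vehicle (SD, n = 5 each), a difference of 0.17, smaller than the spread within either group. The difference was 0.03 without paclitaxel replicate 3 and 0.32 without vehicle replicate 5. With both left out, the 8 libraries ran from -0.27 to 0.23, and the means were 0.09 ± 0.15 with paclitaxel and -0.10 ± 0.16 with vehicle (SD, n = 4 each). That difference of 0.19 was larger than the SD of either group, with the values of the groups overlapping.

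The same 2 libraries came first in each other build of the index that was tried. They were the highest 2 of the 10 with the same 6 genes of groups 10 and 11 set against groups 4 to 9 (no member of groups 12 and 13 passed the filter), with groups 8 and 9 in place of groups 4 to 7, with the Hoxb cluster left out, and with the log of summed CPM. They were also the highest 2 within the Hoxa, the Hoxc and the Hoxd cluster taken alone. These clusters hold 2 tested members of groups 10 and 11 each and 4, 3 and 1 of groups 4 to 7. Every build drew on the same 6 genes of groups 10 and 11 or on 2 of them. The builds are therefore not independent of each other, and their agreement is partly built in. In Hoxa the index was 1.03 in paclitaxel replicate 3 and 1.16 in vehicle replicate 5, and in Hoxc it was 1.30 in paclitaxel replicate 3 and 1.29 in vehicle replicate 5. In Hoxd it was 0.53 in paclitaxel replicate 3 and 0.01 in vehicle replicate 5, where the other libraries lay between -1.12 and -0.11. Both sides of the index moved in these 2 libraries, and the larger part came from groups 10 and 11. In paclitaxel replicate 3 the mean of groups 10 and 11 lay 0.40 above its 10-library mean and that of groups 4 to 7 lay 0.22 below; in vehicle replicate 5 these were 0.45 above and 0.096 below. Taken apart, group 11 was 0.73 above in paclitaxel replicate 3 and group 10 was 0.07 above. In vehicle replicate 5 group 11 was 0.69 above and group 10 was 0.20 above. Group 7 was 0.11 above in paclitaxel replicate 3, unlike the mean of groups 4 to 7. The 0.096 of vehicle replicate 5 was smaller than the 0.16 by which groups 4 to 7 lay above in vehicle replicate 3. In vehicle replicate 1 the members of groups 10 and 11 lay 0.44 below and those of groups 4 to 7 only 0.022 below.

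**Figure D4:**
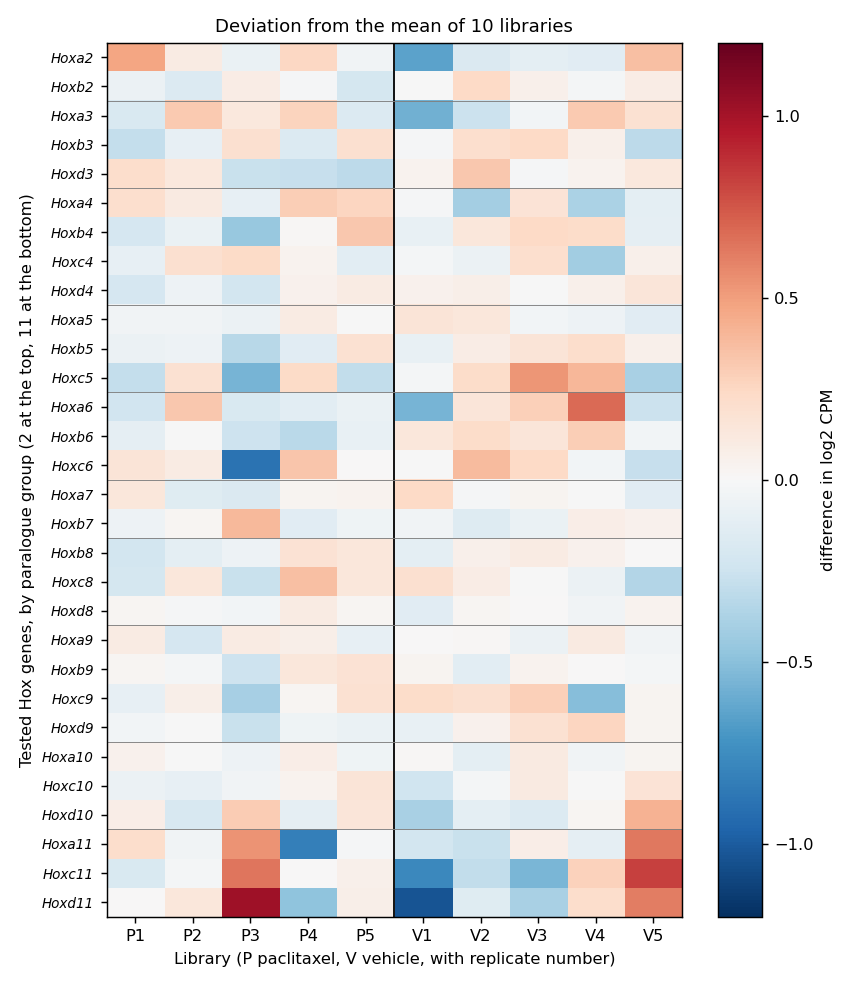
Log2 CPM of the 30 tested Hox genes in each library minus the gene's mean over 10 libraries (red above, blue below), with paclitaxel libraries P1 to P5 to the left of vehicle libraries V1 to V5 and paralogue groups running from 2 at the top to 11 at the bottom. The group 11 genes at the bottom are red in P3 and V5 and blue in V1, and Hoxc6 and Hoxc5 are among the bluest cells of P3.

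The differences were widest in group 11. The mean deviation of group 11 was 0.73 in paclitaxel replicate 3 and -0.43 in paclitaxel replicate 4, against 0.69 in vehicle replicate 5 and -0.68 in vehicle replicate 1. Over the libraries group 11 spanned 1.41 on the log2 scale, whereas groups 7 to 10 spanned between 0.19 and 0.41. Groups 5 and 6 spanned 0.54 and 0.75, with paclitaxel replicate 3 lowest at -0.32 and -0.44. Groups 3 and 4 spanned 0.32 and 0.29. Group 2, with 2 tested genes, spanned 0.55, with vehicle replicate 5 highest at 0.23 and vehicle replicate 1 lowest at -0.32. Within the vehicle group these were also the highest and lowest libraries of group 11. Neither group 2 nor group 3 enters the index. By gene, paclitaxel replicate 3 was among the highest 2 libraries for 4 of the 6 members of groups 10 and 11. It was among the lowest 2 for Hoxa10. Of the 12 members of groups 4 to 7 it was the lowest library for 6, but the highest for 2, Hoxb7 and Hoxc4. Vehicle replicate 5 was among the highest 2 for 5 of the 6 and among the lowest 2 for 4 of the 12. Vehicle replicate 1 was the lowest library for 4 of the 6 members of groups 10 and 11. The like shares over all tested genes were not computed, and paclitaxel replicate 3 stood apart over all genes. These counts by gene therefore do not show a pattern particular to the Hox genes. Hoxc6, which directs forelimb motor neuron identity, was at 16.6, 15.9, 7.85, 18.8 and 14.9 CPM in paclitaxel libraries 1 to 5 and 14.8, 19.4, 17.6, 14.5 and 12.2 CPM in vehicle libraries 1 to 5. It was lowest in paclitaxel replicate 3 and, within the vehicle group, in replicate 5, the reverse of the group 11 genes.

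Spread between the libraries of a group was larger than in genes of like abundance for several Hox genes. The BCV was above the abundance trend for 14 of the 30 (46.7%), beside 30.0% of all tested genes. It was at least 1.5 times the trend for 5 of the 30 (16.7%), beside 4.61% of all tested genes: Hoxd11 (36.0% against a trend of 12.1%), Hoxc6 (17.1% against 10.5%), Hoxa11 (19.5% against 12.5%), Hoxd10 (13.9% against 8.92%) and Hoxc11 (22.0% against 14.3%). Hoxd11, at 2.98 times the trend, lay above 99.1% of all genes. Hoxc8 lay just under 1.5 times the trend, at 1.47 times. With paclitaxel replicate 3 left out the count was 2 (Hoxd11 and Hoxd10), 6.45% of the Hox genes beside 3.45% of all genes. With vehicle replicate 5 left out it was 1 (Hoxd11), 3.33% beside 4.16% of all genes, so the Hox share was no longer the larger. With vehicle replicate 1 left out it was 3, 10% beside 5.06% of all genes. With both paclitaxel replicate 3 and vehicle replicate 5 left out it was 0 of 30, beside 2.46% of all genes, and Hoxd11 was at 1.23 times the trend.

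**Figure D5:**
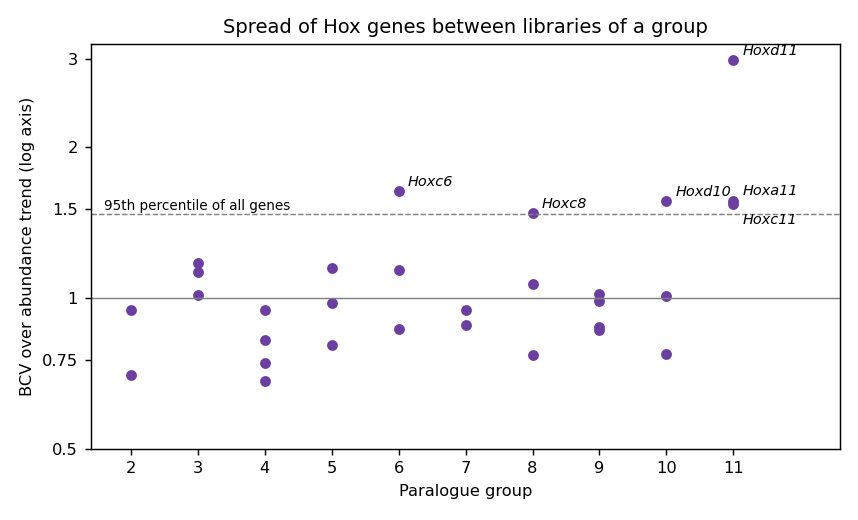
BCV of each tested Hox gene between the libraries of a group, divided by the trend for genes of its abundance (log axis), by paralogue group; the solid line marks 1 and the dashed line the 95th percentile of all tested genes (1.47). All 3 group 11 genes, Hoxd10, Hoxc6 and Hoxc8 lie above the dashed line, with Hoxd11 at 2.98 and Hoxc8 only just above the line (1.474 against 1.466).

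Hotair, a long noncoding RNA transcribed antisense within the Hoxc cluster between Hoxc11 and Hoxc12 (chromosome 15, 102944062 to 102947946, GRCm38), was highest in the same libraries. It was at 1.87, 1.66, 9.13, 1.09 and 2.57 CPM in paclitaxel libraries 1 to 5 and 0.723, 1.22, 0.880, 1.74 and 4.61 CPM in vehicle libraries 1 to 5. Paclitaxel replicate 3 was the highest of all and vehicle replicate 5 the next, from 43 and 36 counts. Its 2 highest libraries were thus those of Hoxc11, Hoxc12 and Hoxc13. Hotair did not pass the filter on low counts, and fitted without the filter its log2 fold change of paclitaxel over vehicle was 0.70 (SE 0.74, edgeR adjusted p = 0.866). It was -0.12 without paclitaxel replicate 3, 1.53 without vehicle replicate 5 and 0.70 without both (edgeR adjusted p from 0.843 to 0.979).

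Some other measures also differed in these libraries. The 6 genes induced by glucocorticoids that were read out were chosen after their values were seen. They are Hif3a, Zbtb16, Sult1a1 and Cdkn1a, beside Plin4 and Sgk1. All 6 were highest in paclitaxel replicate 3, but a count over genes chosen in this way cannot set the library apart. The share of all genes highest there was not computed. Sgk1, a kinase gene of this kind, was at 41.7, 67.5, 411, 52.9 and 156 CPM with paclitaxel and 58.0, 56.9, 63.6, 137 and 172 CPM with vehicle. Its highest vehicle library was replicate 5, as for Plin4. The summed level of 6 motor neuron markers was 234 to 334 CPM with paclitaxel and 299 to 377 CPM with vehicle. That of 4 ependymal markers was 31.0 to 42.6 CPM with paclitaxel and 32.8 to 43.3 CPM with vehicle. Astrocyte markers (5 genes) summed to 2129 to 2701 CPM in the paclitaxel group and 2202 to 2716 CPM in the vehicle group, and blood markers (4 genes) to 46.3 to 191 CPM in the paclitaxel group and 107 to 131 CPM in the vehicle group. In each of these 4 lists, and in that of cartilage and bone, the lowest paclitaxel library was replicate 3 and the lowest vehicle library was replicate 5, with no marker at 0 in all libraries. This held for 5 of the 12 marker lists. Oligodendrocyte and dorsal root ganglion markers were lowest in 1 of the 2 libraries, and the other 5 lists in neither, with cord neuron markers highest of the paclitaxel group in replicate 3 (4140 CPM). The part of these differences in the Hox values was not tested.

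Promoters of Hox genes that were highest in the same 2 libraries are shown to let their sequence be set beside their levels. They are RefSeq entries on GRCm38.p6, 250 bases before to 50 bases after a gene's start, written 5′ to 3′ on the strand of the gene. Capitals mark every match, on either strand, to any of 5 motifs. These are the TATA box, searched as TATAAA, and the promoter element searched as CCAAT. The GC box bound by Sp proteins was searched as GGGCGG. The core bound by Cdx proteins, which activate trunk Hox genes in the embryo, was searched as TTTATG, and a single arm of the glucocorticoid receptor site was searched as AGAACA. Matches may overlap each other. Hoxd11 has 2 starts in the table, at chr2:74679308-74679607, plus strand, and at chr2:74682073-74682372, plus strand. The Hoxd10 entry is at chr2:74691641-74691940, plus strand, and the Hoxa11 entry at chr6:52245761-52246060, minus strand.
Hoxd11 first start: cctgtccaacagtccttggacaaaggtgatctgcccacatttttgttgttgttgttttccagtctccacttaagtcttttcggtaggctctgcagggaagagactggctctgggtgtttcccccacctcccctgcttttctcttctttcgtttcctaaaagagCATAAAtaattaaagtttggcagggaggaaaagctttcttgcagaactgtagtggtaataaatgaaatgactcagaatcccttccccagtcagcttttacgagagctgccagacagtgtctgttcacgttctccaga
Hoxd11 second start: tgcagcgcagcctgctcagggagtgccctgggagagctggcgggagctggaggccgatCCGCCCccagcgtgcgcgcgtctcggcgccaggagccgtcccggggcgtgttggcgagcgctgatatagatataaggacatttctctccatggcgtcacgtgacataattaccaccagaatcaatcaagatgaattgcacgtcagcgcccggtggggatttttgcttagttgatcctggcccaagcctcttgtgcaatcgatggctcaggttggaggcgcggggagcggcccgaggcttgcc
Hoxd10: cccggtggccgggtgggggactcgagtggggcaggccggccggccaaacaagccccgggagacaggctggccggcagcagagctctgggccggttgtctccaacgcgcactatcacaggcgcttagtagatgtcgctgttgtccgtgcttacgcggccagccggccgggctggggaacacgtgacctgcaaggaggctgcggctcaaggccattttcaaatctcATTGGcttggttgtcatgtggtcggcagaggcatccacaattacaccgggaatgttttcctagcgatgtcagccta
Hoxa11: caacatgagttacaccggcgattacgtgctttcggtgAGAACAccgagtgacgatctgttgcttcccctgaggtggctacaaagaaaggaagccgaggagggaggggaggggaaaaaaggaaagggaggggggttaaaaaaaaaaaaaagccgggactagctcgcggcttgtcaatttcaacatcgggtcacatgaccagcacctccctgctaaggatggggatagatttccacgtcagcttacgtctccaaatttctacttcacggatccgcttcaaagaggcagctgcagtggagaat

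These 4 sequences shared no motif of the 5. The first Hoxd11 start held a single match, to the Cdx-type motif on the opposite strand at -87 from the start, and the second held a GC box on the opposite strand at -192. Hoxd10 held CCAAT on the opposite strand at -26, and Hoxa11 held AGAACA on its own strand at -213. Over all 24 promoters of the 22 Hox genes found in the RefSeq table, TATAAA was present in 16.7%, CCAAT in 62.5%, GGGCGG in 41.7%, TTTATG in 20.8% and AGAACA in 8.33%. Over all 32851 promoters of the table TATAAA was present in 13.6%, CCAAT in 37.4%, GGGCGG in 35.7%, TTTATG in 11.9% and AGAACA in 19.0%. Hox promoters had a median GC content of 57.7% and 14.5 CpG, against 52.7% and 7 over all promoters. A match says only that the letters are there.

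Genes that act with or on the Hox genes were read out from lists. Their counts of higher and lower values stand beside 50.9% of all tested genes lower in value with paclitaxel. TALE homeodomain proteins bind DNA together with Hox proteins. Of 9 such genes, all tested, 4 were higher and 5 lower in value with paclitaxel, 1 was at an unadjusted p under 0.05 and the median log2 fold change was -0.05. That gene was Meis3, with a log2 fold change of -0.23 (SE 0.10). Pbx3, Pbx2 and Pknox1 followed at 0.12, -0.07 and -0.08. Polycomb proteins keep Hox genes silent outside their domain. Of 29 Polycomb genes 28 were tested, 19 higher and 9 lower in value, with 1 at an unadjusted p under 0.05 and a median of 0.04. That gene was Bmi1, a core subunit of Polycomb repressive complex 1, with a log2 fold change of 0.17 (SE 0.08). Phc3, of the same complex, was at 0.14, and of Polycomb repressive complex 2, the histone methyltransferase gene Ezh2 was at -0.35 and Mtf2 at 0.21.

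Trithorax and boundary factors keep Hox genes active or separate active from silent parts of a cluster. All 20 were tested, 15 higher and 5 lower in value with paclitaxel, with 2 at an unadjusted p under 0.05 and a median log2 fold change of 0.03. These were Maz, a zinc finger gene with a part in Hox boundaries, at -0.16 (SE 0.06), and the cohesin gene Stag1 at 0.20 (SE 0.09). Stag2 was at 0.15 and Men1, which encodes menin of the MLL complexes, at -0.15. Of 15 genes of the Cdx, retinoid and Gdf11 inputs 11 were tested, 4 higher and 7 lower in value, with a median of -0.05 and 0 at an unadjusted p under 0.05. Cdx1, Cdx2 and Cdx4 were at 0 in every library. Cyp26b1 and Aldh1a2, which break down and make retinoic acid, were at 0.51 (SE 0.30) and -0.56 (SE 0.37), and Rxra and Tgfbr1 at -0.10 and 0.13.

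Of 38 transcripts within and genes next to the clusters 31 were listed in the table and 15 tested, 10 higher and 5 lower in value with paclitaxel, with a median log2 fold change of 0.0064. Haglr, a noncoding RNA beside Hoxd1, was at -0.17 (SE 0.17), and the neighbours Snx10 and Tax1bp1 (of Hoxa) and Atf2 (of Hoxd) were at 0.13, 0.09 and 0.08. The noncoding RNA Hottip and 6 miRNA genes of the clusters were listed at 0. As mRNA was sequenced, the 0 of the miRNA genes does not say whether mature miRNAs were present. Of 12 genes of limb-level motor neurons 11 were tested, 5 higher and 6 lower in value, with a median of -0.03. Among them Foxp1, which with Hox proteins sets limb motor neuron identity, was at 0.12, the motor neuron homeobox gene Mnx1 at 0.19 and the acetylcholine transporter gene Slc18a3 at -0.10. No gene of any of these 6 lists passed with adjustment over all genes (edgeR adjusted p from 0.792 up). Their shares at an unadjusted p under 0.05 are to be read beside the 6.07% of all genes. Their shares lower in value are to be read beside the 50.9% of all genes, and the lists were not tested as sets.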

How the data were processed

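Bulk RNA of lumbar spinal cord was measured in 10 libraries, 5 per group. The deposited table holds the authors' RSEM expected counts per gene, not scaled to depth; STAR, RSEM and edgeR 4.2.0 with genome build mm10 are named per the submitters' processing notes. Tool versions other than edgeR's, the gene annotation and strand handling were not given in the sources used here. Where reads match several genes, RSEM shares them out, and 5.04% of values were not whole (tolerance 1e-09); all were rounded before testing. All sample columns were used.

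Genes were filtered with filterByExpr (minimum count 10, minimum total 15) in edgeR 4.0.16 under R 4.3.3, scaled by TMM factors, and fitted over all genes with no covariate by the quasi-likelihood test (robust option), two-sided, adjusted by Benjamini-Hochberg at 0.05. CPM uses TMM-scaled library sizes, log2 CPM adds a prior count of 2, and intervals are at 95%. Within groups, library pairs had a chi-square per degree of freedom of 1.59 to 6.55, and none was treated as a repeat of another. Depth was 3676259 to 7791594 counts per library. Transcript lengths and GC content came from GENCODE M21, and coordinates and promoters from RefSeq on GRCm38. The fit was tested on simulated counts.

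The Hox genes, the other lists and the rules were chosen with earlier results of these data known. Values per library are given for the member of highest CPM per kb in each paralogue group, members of groups 9 to 13 with a mean of at least 1 CPM, and the 4 tested members of lowest p in each direction; of each other list, up to 4 tested members of lowest p are named. Hoxc6, Hoxb7, Hoxa6, Hotair, Plin4 and Sgk1 were added after their values were seen. Some items are not reported here.

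Alternatives were other scaling factors, other filters, DESeq2 1.42.0, limma-voom (limma 3.58.1), the replicate block, a GC and length correction, other index members, other transcript lengths and leaving out libraries.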

Additional observations from a re-analysis of the deposited data

Results flagged for a closer look

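Of the values by library, 8 lay far from the other libraries of their group. Each group of 5 values was looked at for its highest or lowest library standing away from the nearest other by more than 0.71 of the group's whole range, for the 30 tested Hox genes, Hoxd1, Hoxc12, Hoxc13, Hotair, Plin4, Sgk1 and the caudal-minus-rostral index, 74 groups in all. For normally distributed values that were not picked beforehand, chance alone gives such a gap in about 1 of 20 groups. Hotair, Plin4 and Sgk1 were picked after their values were seen, and Hoxc12 and Hoxc13 rest on few counts. The 8 flags are therefore not to be set against that rate.

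Paclitaxel replicate 3 stood above its group for 6 genes. Hoxb7 was at 34.8 CPM there, with the next paclitaxel library at 27.0 CPM. Hoxc11 was at 4.03 CPM and the next at 2.57 CPM. Hoxc12 was at 4.25 CPM and the next at 0.734 CPM. Hoxc13 was at 3.40 CPM and the 4 others at 0. Hotair was at 9.13 CPM and the next at 2.57 CPM. Plin4, the gene induced by glucocorticoids, was at 159.6 CPM and the next at 16.9 CPM.

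Hotair also stood apart in the vehicle group, at 4.61 CPM in replicate 5 with the next library at 1.74 CPM. Hoxa6 was at 4.99 CPM in paclitaxel replicate 2, with the next paclitaxel library at 3.67 CPM.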

How the results depend on the processing

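The count of Hox genes at an unadjusted p under 0.05 stayed at 1 (Hoxb6) under every other scaling, filter and test tried, and was 2 with the GC and length correction (Hoxb6 and Hoxa4), where the median Hox log2 fold change was 0.0066. Genes past an adjusted p of 0.05 over all genes numbered 1 with DESeq2 (Klf4), 1 with the replicate block (Fos) and 1 with the replicate block and the GC and length correction (Fos), none of them a Hox gene. The labels do not say that the replicate numbers pair the samples. Correlations of deviations between libraries of the same number were 0.082, 0.14, -0.10, 0.0071 and 0.13. They were not set beside those of libraries of unlike number. With the block the Hox count was 1 and the median Hox log2 fold change -0.03. Leaving out 1 library at a time gave 1 to 2 Hox genes at an unadjusted p under 0.05. Such genes numbered 514 (without vehicle replicate 3) to 1300 (without vehicle replicate 1) in all, with 0 past adjustment. The median Hox log2 fold change was -0.06 to -0.0069 and the index difference 0.03 to 0.32. Hox genes at 1.5 times the trend of spread numbered 1 (3.33%, without vehicle replicate 5) to 7 (22.6%, without vehicle replicate 4). Beside these stood 4.16% and 4.54% of all genes.

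Removing both paclitaxel replicate 3 and vehicle replicate 5, chosen after seeing the data as was every removal for the count of spread, gave 0 Hox genes at 1.5 times the trend, and an index difference of 0.19. Leaving them out for Hotair was also chosen after seeing the data and gave -0.12 (without paclitaxel replicate 3) to 1.53. Of 441 recomputed log2 fold changes of 21 Hox genes, 407 kept their sign, and the lowest adjusted p was 0.391. The sign turned for Hoxa7, Hoxb8 and Hoxa9 with the GC and length correction (0.035, 0.059 and 0.022) and with that correction and the replicate block (0.041, 0.056 and 0.020), and for Hoxc10 and Hoxa11 without both libraries (0.049 and 0.039). Leaving out 1 library turned the sign within these ranges: Hoxa10 -0.022 to 0.031, Hoxa11 -0.20 to 0.20, Hoxa7 -0.089 to 0.019, Hoxa9 -0.035 to 0.041, Hoxb3 -0.14 to 0.013, Hoxb8 -0.079 to 0.017, Hoxb9 -0.014 to 0.093, Hoxc10 -0.059 to 0.038, Hoxc11 -0.12 to 0.50, Hoxd10 -0.014 to 0.22 and Hoxd11 -0.014 to 0.56. The cause was not tested. The leading member of a paralogue group was the same in 12 of 13 groups with the longest or the RefSeq transcripts, Hoxb7 leading in place of Hoxa7. Depth limits the genes of groups 12 and 13, where the limit of 3 counts for a count of 0 is worth up to 0.816 CPM.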
